A study of Mus musculus with 4 samples.

Results

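The members were 6 variable (V) segments of the T cell receptor beta chain, Trbv13-1, Trbv13-2, Trbv14, Trbv17, Trbv29 and Trbv31, measured in CD45+ immune cells of mouse liver. They were taken by symbol from 32344 listed features, of which 35 were Trbv segments and 22 of those had at least 1 unique molecular identifier (UMI). The rule selects them by name, but they were proposed with earlier results of these data known. Each segment was described in CD4, CD8 and NKT cells and in each library. The libraries came from a GS(+/delta)Hep pool (1 library), a URI(+/delta)Hep pool (1 library) and WT pools (2 libraries). The first 2 genotypes carry a heterozygous hepatocyte deletion of glutamine synthetase or of URI, as far as the labels and the series title give it. All mice, WT included, had received tamoxifen for 1 week, and each library pooled cells from 5 mice. The labels give neither the Cre driver nor the age or strain. Hepatocytes were not sorted, so the levels of the deleted genes in these cells check nothing about the labels. The sorted CD45+ cells were fixed and probed for the whole transcriptome, so a UMI counts a ligated probe pair and not a read of a rearranged receptor.

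Each developing T cell joins 1 V segment of the beta locus to a D and a J segment and a constant region, Trbc1 or Trbc2. The V segment in a cell's messenger RNA is thus common to its clone, but many clones use the same segment. Conventional CD4 and CD8 T cells, which recognise peptides on MHC class II and class I molecules, draw on the whole set of V segments. Type I NKT cells, which are abundant in mouse liver and recognise lipids on CD1d, pair an invariant alpha chain with beta chains that in mice are known to use mainly segments of the Trbv13, Trbv29 and Trbv1 groups, Trbv13-2 first among them.

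The 6 segments lie in the beta locus on chromosome 6. In the GENCODE annotation of GRCm38, the same assembly as the mm10 of the submitters' processing notes, each has 2 exons. Trbv13-1 is at chr6:41116007-41116468, Trbv13-2 at chr6:41121396-41121832, Trbv14 at chr6:41135145-41135616, Trbv17 at chr6:41163062-41163556 and Trbv29 at chr6:41271394-41271881, all on the plus strand. Trbv31 stands apart at chr6:41557691-41558452 on the minus strand, 286 kb beyond Trbv29 and 9.34 kb beyond Trbc2. A stretch of 300 coding bases of each member is shown (bases 1 to 300 for Trbv31 and up to the last base for the others) because the members differ in how far a near copy exists elsewhere in the locus. They run 5′ to 3′ on the coding strand, and capitals mark the longest stretch that is identical, letter for letter, in any other of the 22 detected segments. Trbv12-2 is added because it was the segment found most often beside Trbv14.
Trbv13-1: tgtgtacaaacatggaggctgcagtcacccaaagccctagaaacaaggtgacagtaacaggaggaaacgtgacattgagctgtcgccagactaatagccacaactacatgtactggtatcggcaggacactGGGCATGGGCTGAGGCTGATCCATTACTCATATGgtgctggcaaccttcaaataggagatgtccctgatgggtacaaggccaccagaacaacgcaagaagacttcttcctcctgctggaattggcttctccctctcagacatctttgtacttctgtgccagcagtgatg
Trbv13-2: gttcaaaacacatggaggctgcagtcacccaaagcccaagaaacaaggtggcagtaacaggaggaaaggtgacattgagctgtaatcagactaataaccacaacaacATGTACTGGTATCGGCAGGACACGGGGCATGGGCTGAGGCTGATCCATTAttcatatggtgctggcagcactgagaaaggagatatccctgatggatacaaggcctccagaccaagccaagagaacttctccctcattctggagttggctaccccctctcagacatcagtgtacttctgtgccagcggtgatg
Trbv14: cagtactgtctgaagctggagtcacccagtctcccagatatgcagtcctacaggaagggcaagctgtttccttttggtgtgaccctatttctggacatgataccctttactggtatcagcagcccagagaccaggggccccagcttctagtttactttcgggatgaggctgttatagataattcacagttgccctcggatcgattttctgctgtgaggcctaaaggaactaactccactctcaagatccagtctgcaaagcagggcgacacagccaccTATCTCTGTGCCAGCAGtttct
Trbv17: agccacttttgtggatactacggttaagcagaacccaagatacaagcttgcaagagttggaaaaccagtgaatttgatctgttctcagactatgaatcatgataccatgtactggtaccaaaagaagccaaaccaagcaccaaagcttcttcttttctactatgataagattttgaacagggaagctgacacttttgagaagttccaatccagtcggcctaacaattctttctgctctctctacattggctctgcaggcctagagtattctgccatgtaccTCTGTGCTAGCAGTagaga
Trbv29: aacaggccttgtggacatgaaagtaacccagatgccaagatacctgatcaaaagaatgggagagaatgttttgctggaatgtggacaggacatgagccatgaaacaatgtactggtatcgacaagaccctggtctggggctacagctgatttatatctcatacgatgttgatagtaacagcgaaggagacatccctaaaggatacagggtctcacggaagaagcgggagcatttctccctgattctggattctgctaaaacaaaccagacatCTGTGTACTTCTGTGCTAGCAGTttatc
Trbv31: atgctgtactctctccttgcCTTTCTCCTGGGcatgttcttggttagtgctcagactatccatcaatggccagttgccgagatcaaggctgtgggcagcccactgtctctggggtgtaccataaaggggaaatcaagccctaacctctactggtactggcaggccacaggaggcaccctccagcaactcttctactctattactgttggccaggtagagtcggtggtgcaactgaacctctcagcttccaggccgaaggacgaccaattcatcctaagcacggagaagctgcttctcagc
Trbv12-2: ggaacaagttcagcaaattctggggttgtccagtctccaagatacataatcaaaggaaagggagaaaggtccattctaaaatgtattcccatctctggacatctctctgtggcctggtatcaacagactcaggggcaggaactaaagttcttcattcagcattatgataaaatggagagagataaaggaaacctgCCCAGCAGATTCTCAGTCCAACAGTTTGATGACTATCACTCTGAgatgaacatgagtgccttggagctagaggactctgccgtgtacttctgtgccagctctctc
Trbv13-2 shared a run of 50 bases with Trbv13-3, and Trbv13-1 shared 34 bases with the same segment. Trbv29 shared 23 bases with Trbv21, Trbv14 shared 17 with Trbv4, Trbv17 shared 14 with Trbv21 and Trbv31 shared 12 with Trbv12-2. Over the aligned coding bases, Trbv13-1 and Trbv13-2 were 87.1% identical and Trbv13-2 and Trbv13-3 were 90.6% identical. The other 14 pairs of members had 52.4% to 62.7% identity. Trbv13-1 and Trbv13-2 are therefore the members whose counts could share probes with a near copy. The probe sequences were not used here, so levels were compared between cell classes and libraries for the same segment. Where shares of different segments stand side by side, the part of probe capture in their difference was not tested.

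The GS library held 39451266 UMIs and the URI library 51920505, against 37783065 in WT replicate 1 and 24041049 in WT replicate 2. Barcodes with at least 500 UMIs numbered 7846 (GS) and 9096 (URI), against 8483 and 7453 (WT). No full barcode was shared between libraries, and 1480 to 2076 barcodes of each library pair shared its droplet part. WT replicate 2 was the shallowest library, with a median of 4378 UMIs in its NKT-gated barcodes against 6255 to 7320 in the other libraries. The summed level of 4 Y-linked genes in T-gated barcodes was 199 CPM in the GS library and 476 CPM in the URI library, against 9.23 and 267 CPM in the WT libraries. WT replicate 1 was far below the other 3 libraries in these genes, and the part of this difference in the genotype comparisons was not tested.

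A barcode was taken as a T cell with at least 2 UMIs of Cd3e and Cd3g together, and 15643 barcodes passed (4499 GS and 4450 URI, 4416 and 2278 WT). NKT-gated barcodes had at least 1 UMI each of Zbtb16, which encodes the transcription factor PLZF, and of the chemokine receptor gene Cxcr6 (2716 barcodes). Of the rest, CD8-gated barcodes had Cd8a or Cd8b1 and no Cd4 (5718), and CD4-gated barcodes had Cd4 and neither Cd8 gene (3812). The gates used no V segment.

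The NKT markers outside the gates were highest in NKT-gated sums, but other marker sets did not all follow the class names. Il2rb, the beta chain of the IL-2 and IL-15 receptors, ran from 2857 to 3570.4 CPM in NKT-gated sums, 737 to 939 CPM in CD8-gated sums and 469 to 659.6 CPM in CD4-gated sums, where CPM is a gene's UMIs scaled to the same fixed total in every class and library. Klrb1c, which encodes NK1.1, ran from 147 to 296 CPM in NKT-gated, 18.3 to 39.0 CPM in CD8-gated and 20.5 to 26.9 CPM in CD4-gated sums. Regulatory T cell markers summed to 332 to 394 CPM in NKT-gated and 346 to 365 CPM in CD4-gated sums. Summed NK cell markers were at 372 and 274 CPM (GS, URI) and 870 and 215 CPM (WT) in NKT-gated sums. In CD8-gated sums they were at 571 and 327 CPM (GS, URI) and 506 and 192 CPM (WT). All 4 gamma-delta T cell markers tested were also present. Their summed level ran from 317 to 884 CPM in NKT-gated sums, against 96.5 to 230.1 CPM in CD8-gated and 53.3 to 82.5 CPM in CD4-gated sums. Of the 2716 NKT-gated barcodes, 1636 carried at least 1 UMI of any of these 4 genes. The same count was not made in CD8-gated and CD4-gated barcodes. The invariant NKT alpha chain could not be checked, because none of its genes (Trav11, Trav11d and Traj18) was among the genes tested, so the gate is one on PLZF and Cxcr6 and not on CD1d binding. Neutrophil markers (4 of 4 detected) summed to 1278 to 2665 CPM in NKT-gated, 1331 to 2424 CPM in CD8-gated and 1679 to 3875 CPM in CD4-gated sums. Plasma cell markers (4 of 4 detected) summed to 245 to 445 CPM in NKT-gated, 117 to 326 CPM in CD8-gated and 288 to 526 CPM in CD4-gated sums.

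Trbv29 and Trbv13-1 were the members found most often in NKT-gated cells, Trbv31 was found most often in CD4-gated cells, and Trbv14 and Trbv17 most often in CD8-gated cells. At least 1 UMI of a member was present in 24.6% of all T-gated barcodes, with 32.1% of NKT-gated, 25.03% of CD8-gated and 21.8% of CD4-gated barcodes. In B-gated barcodes, which should lack the genes, the share was 1.70%. The median depth was 6293 UMIs in NKT-gated, 4978 in CD8-gated, 4742.5 in CD4-gated and 3072 in B-gated barcodes. At 3 or more UMIs of a member, the share was 16.6% of T-gated and 0.0301% of B-gated barcodes. Free RNA, taken from barcodes under 100 UMIs, also held the members: Trbv29 reached 79.8 CPM there in the GS library and 75.8 CPM in the URI library, against 72.5 and 31.6 CPM in the WT libraries.

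**Figure D1:**
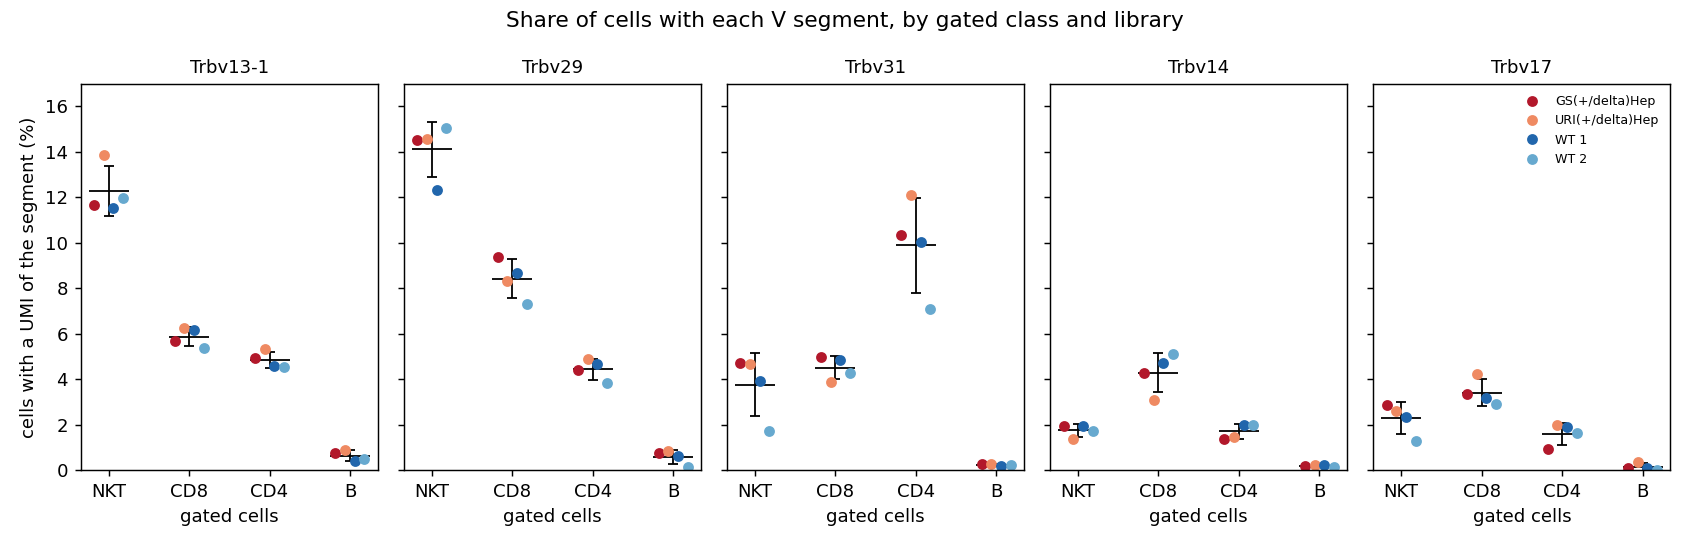
Share of barcodes with at least 1 UMI of each member (y axis, percent) in NKT-gated, CD8-gated, CD4-gated and B-gated barcodes, with 1 point per library and bars for the mean and SD over 4 libraries. Mean shares of Trbv29 are 14.1% in NKT-gated, 8.42% in CD8-gated and 4.45% in CD4-gated barcodes, and those of Trbv31 are 3.76%, 4.50% and 9.90%.

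Trbv29 was present in 14.5% and 14.6% of NKT-gated barcodes of the GS and URI libraries, and in 12.3% and 15.0% of those of the WT libraries. In CD8-gated barcodes it was present in 9.38% and 8.33% (GS, URI) and in 8.66% and 7.30% (WT). In CD4-gated barcodes it was present in 4.40% and 4.90% (GS, URI) and in 4.66% and 3.82% (WT). The 3 classes did not overlap over the 4 libraries, with NKT-gated cells highest and CD4-gated cells lowest. The mean share was 14.1% ± 1.21 in NKT-gated, 8.42% ± 0.866 in CD8-gated and 4.45% ± 0.466 in CD4-gated barcodes (SD, n = 4 libraries), against 0.602% in B-gated and 1.13% in neutrophil-gated barcodes. Barcodes were then thinned to 1000 UMIs, and those with fewer were left out (11 NKT-gated, 198 CD8-gated and 60 CD4-gated). The shares after thinning were 9.54% in NKT-gated, 5.56% in CD8-gated and 2.56% in CD4-gated barcodes, the same order. The thinned shares printed here and below are over all libraries together, not means over libraries. Summed levels were 219.7 and 171 CPM (GS, URI) and 192 and 147 CPM (WT) in NKT-gated cells. They were 119.5 and 114 CPM (GS, URI) and 156 and 63.3 CPM (WT) in CD8-gated cells, and 44.6 and 46.9 CPM (GS, URI) and 65.7 and 32.6 CPM (WT) in CD4-gated cells. NKT-gated cells had the highest and CD4-gated cells the lowest level in every library.

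Tests used edgeR's quasi-likelihood fit with the library as a term, and p-values were adjusted over 10814 genes (Benjamini-Hochberg). Trbv29 was higher in NKT-gated than in CD4-gated cells by 1.97 on the log2 scale (SE 0.12, adjusted p = 1.36e-08). It was higher in NKT-gated than in CD8-gated cells by 0.70 (SE 0.11, adjusted p = 8.96e-05) and in CD8-gated than in CD4-gated cells by 1.27 (SE 0.12, adjusted p = 3.3e-06). All 3 calls held in each of 12 alternatives. The classes hold different cells and were tested on sums of them, so a larger share of cells and more RNA per cell cannot be told apart by the levels alone. Among barcodes with the segment, the median was 8 UMIs of Trbv29 in NKT-gated, 6 in CD8-gated and 3 in CD4-gated barcodes.

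Trbv13-1 was present in 11.6% and 13.9% of NKT-gated barcodes (GS, URI) and in 11.5% and 11.98% (WT). In CD8-gated barcodes it was present in 5.67% and 6.25% (GS, URI) and in 6.16% and 5.37% (WT). In CD4-gated barcodes it was present in 4.95% and 5.33% (GS, URI) and in 4.56% and 4.55% (WT). NKT-gated cells lay far above both other classes in every library, while CD8-gated and CD4-gated cells differed little. The mean share was 12.3% ± 1.09 in NKT-gated, 5.86% ± 0.415 in CD8-gated and 4.85% ± 0.372 in CD4-gated barcodes (SD, n = 4 libraries), with 0.638% in B-gated and 0.713% in neutrophil-gated barcodes. Thinned to 1000 UMIs, the shares were 6.06% in NKT-gated, 2.90% in CD8-gated and 2.56% in CD4-gated barcodes. Summed levels were 81.1 and 104 CPM (GS, URI) and 83.6 and 81.1 CPM (WT) in NKT-gated cells. The level in NKT-gated cells was higher than in CD4-gated cells by 1.24 on the log2 scale (SE 0.10, adjusted p = 1.98e-07) and than in CD8-gated cells by 0.96 (SE 0.09, adjusted p = 1.33e-06). CD8-gated and CD4-gated cells did not pass the test of their difference (0.28, SE 0.10, adjusted p = 0.0567), although CD8-gated cells were higher in 4 of 4 libraries. That difference passed in 3 of 12 alternatives, among them without the URI library (adjusted p = 0.0316) and without WT replicate 2 (0.0405).

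Trbv13-2, the segment named above as the most used one in NKT cells, gave almost no counts. Its total over all barcodes of at least 500 UMIs in 4 libraries was 6 UMIs, and its level was 0 to 0.161 CPM in NKT-gated, 0 to 0.346 CPM in CD8-gated and 0 CPM in CD4-gated sums. It did not pass the filter on low counts and was not tested, so 5 of the 6 members were. Whether the probe set captures this segment was not tested. The segment closest to it in sequence, Trbv13-3, passed the test in none of the 3 comparisons (log2 −0.03 for NKT-gated minus CD4-gated, −0.17 for NKT-gated minus CD8-gated and 0.14 for CD8-gated minus CD4-gated cells).

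Trbv31 was found most often in CD4-gated cells. It was present in 4.73% and 4.66% of NKT-gated barcodes (GS, URI) and in 3.91% and 1.74% (WT). In CD8-gated barcodes it was present in 4.97% and 3.90% (GS, URI) and in 4.85% and 4.27% (WT). In CD4-gated barcodes it was present in 10.4% and 12.1% (GS, URI) and in 10.0% and 7.09% (WT). CD4-gated cells lay above both other classes in every library, and WT replicate 2 was the lowest library in NKT-gated and CD4-gated cells. The mean share was 3.76% ± 1.40 in NKT-gated, 4.50% ± 0.505 in CD8-gated and 9.90% ± 2.09 in CD4-gated barcodes (SD, n = 4 libraries), with 0.227% in B-gated barcodes. Summed levels were 22.6 and 23.6 CPM (GS, URI) and 23.9 and 10.4 CPM (WT) in NKT-gated cells. They were 41.1 and 25.7 CPM (GS, URI) and 31.9 and 26.3 CPM (WT) in CD8-gated cells, and 88.6 and 115 CPM (GS, URI) and 98.2 and 58.1 CPM (WT) in CD4-gated cells. The ranges of CD4-gated cells did not overlap those of the other classes. NKT-gated cells were lower than CD4-gated cells by edgeR's test (−2.13 on the log2 scale, SE 0.16, adjusted p = 6.73e-08), as were CD8-gated cells (−1.55, SE 0.14, adjusted p = 1.71e-06). NKT-gated cells were also lower than CD8-gated cells (−0.58, SE 0.17, adjusted p = 0.0105), a call that was lost without the GS library (adjusted p = 0.0673) and without the library term (0.0986).

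Trbv14 was present in 1.96% and 1.37% of NKT-gated barcodes (GS, URI) and in 1.96% and 1.74% (WT). In CD8-gated barcodes it was present in 4.28% and 3.09% (GS, URI) and in 4.70% and 5.10% (WT). In CD4-gated barcodes it was present in 1.37% and 1.46% (GS, URI) and in 1.98% and 2.00% (WT). The CD8-gated shares lay above all shares of both other classes, which overlapped each other. The mean share was 1.76% ± 0.280 in NKT-gated, 4.29% ± 0.867 in CD8-gated and 1.71% ± 0.333 in CD4-gated barcodes (SD, n = 4 libraries), with 0.194% in B-gated and 0.567% in neutrophil-gated barcodes. Summed levels were 28.1 and 10.2 CPM (GS, URI) and 21.7 and 30.8 CPM (WT) in NKT-gated cells. They were 123 and 79.4 CPM (GS, URI) and 114 and 158 CPM (WT) in CD8-gated cells, and 48.1 and 27.1 CPM (GS, URI) and 52.9 and 16.3 CPM (WT) in CD4-gated cells. The CD8-gated range overlapped neither of the others. The level in NKT-gated cells was lower than in CD8-gated cells (−2.44 on the log2 scale, SE 0.22, adjusted p = 6.1e-07, edgeR), and that in CD8-gated cells was higher than in CD4-gated cells (1.58, SE 0.20, adjusted p = 4.2e-05). NKT-gated cells were also lower than CD4-gated cells in level (−0.85, SE 0.25, adjusted p = 0.0136), while their shares before thinning overlapped. After thinning to equal depth, the share was 0.702% in NKT-gated and 1.31% in CD4-gated barcodes, lower in NKT-gated cells in every library. These shares rest on 19 and 49 barcodes and were not tested, so no firm order is read between these classes. The call on the level was lost in 5 of 12 alternatives, among them without the URI library (adjusted p = 0.0638), without WT replicate 1 (0.0809) and with DESeq2 (0.146). Among barcodes with Trbv14, the median was 3 UMIs in NKT-gated, 11 in CD8-gated and 7 in CD4-gated barcodes.

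Trbv17 was present in 2.88% and 2.62% of NKT-gated barcodes (GS, URI) and in 2.35% and 1.31% (WT). In CD8-gated barcodes it was present in 3.34% and 4.23% (GS, URI) and in 3.18% and 2.89% (WT). In CD4-gated barcodes it was present in 0.917% and 1.98% (GS, URI) and in 1.88% and 1.64% (WT). CD8-gated shares were highest in every library, and the NKT-gated and CD4-gated shares overlapped. The mean share was 2.29% ± 0.690 in NKT-gated, 3.41% ± 0.578 in CD8-gated and 1.60% ± 0.480 in CD4-gated barcodes (SD, n = 4 libraries), with 0.143% in B-gated barcodes. Summed levels were 59.7 and 26.2 CPM (GS, URI) and 48.3 and 20.4 CPM (WT) in NKT-gated cells. They were 90.1 and 118 CPM (GS, URI) and 102 and 41.5 CPM (WT) in CD8-gated cells, and 21.5 and 33.1 CPM (GS, URI) and 38.1 and 42.2 CPM (WT) in CD4-gated cells. In WT replicate 2 the CD8-gated and CD4-gated levels were nearly equal. The level in NKT-gated cells was lower than in CD8-gated cells (−1.20 on the log2 scale, SE 0.26, adjusted p = 0.00172, edgeR), and that in CD8-gated cells was higher than in CD4-gated cells (1.51, SE 0.27, adjusted p = 0.000808). NKT-gated and CD4-gated cells did not pass the test of their difference (0.31, SE 0.30, adjusted p = 0.444).

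Among the 5 members tested, 2 were higher and 2 lower in NKT-gated than in CD4-gated cells, against 44.6% of all 10814 genes called in either direction, 22.5% higher and 22.1% lower. Between NKT-gated and CD8-gated cells, 2 were higher and 3 lower, against 48.2% of all genes, 23.8% higher and 24.4% lower. Between CD8-gated and CD4-gated cells, 3 were higher and 1 lower, against 27.8% of all genes, 13.7% higher and 14.0% lower. The shares of all genes are large, so that a member is called is in itself no sign that V segments stand apart from other genes. The median change of the members was 0.31 between NKT-gated and CD4-gated cells, −0.58 between NKT-gated and CD8-gated cells and 1.27 between CD8-gated and CD4-gated cells, against −0.00, −0.01 and 0.01 over all genes. DESeq2 called 3, 5 and 4 of the members in these comparisons.

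**Figure D2:**
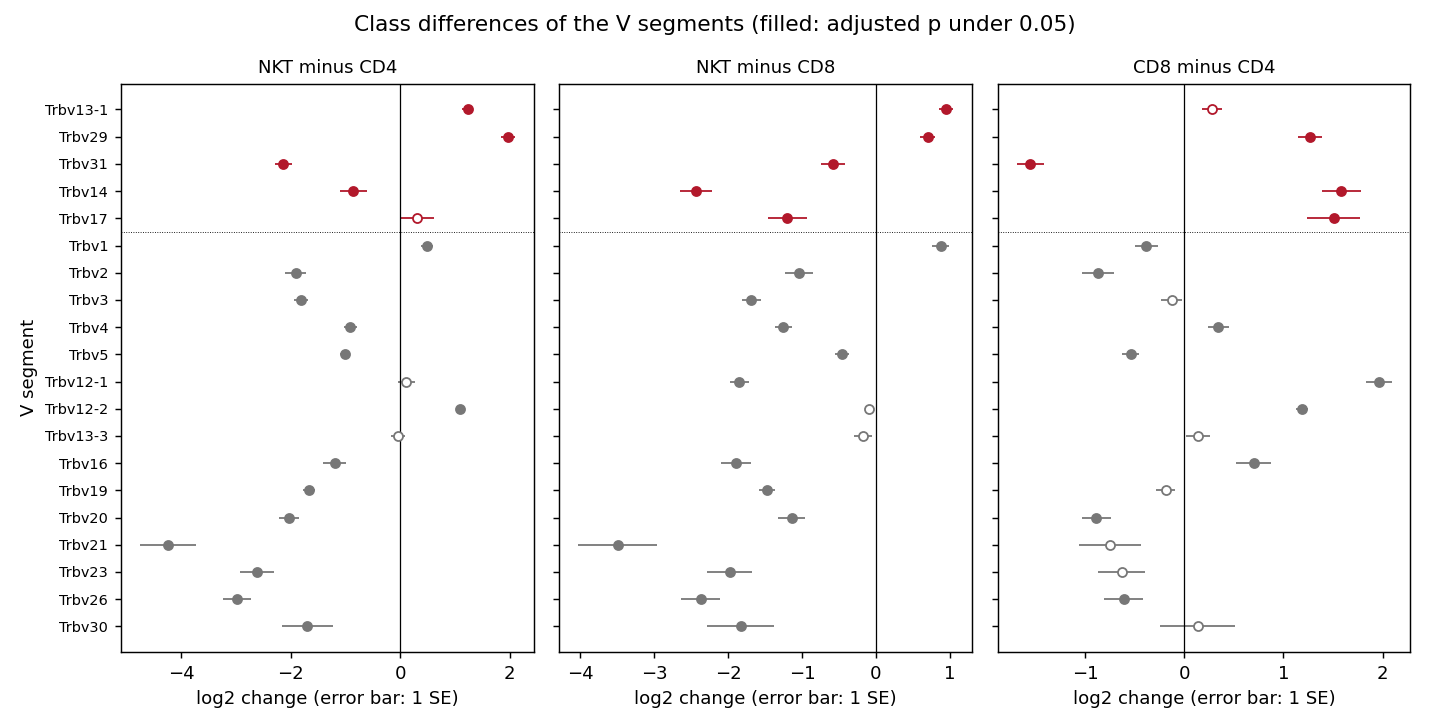
Log2 change of each member and of the other tested V segments between classes, with 1 SE as bars and filled points where the adjusted p is under 0.05, for NKT-gated minus CD4-gated, NKT-gated minus CD8-gated and CD8-gated minus CD4-gated cells. Trbv29 is at 1.97 and Trbv31 at −2.13 in the first comparison, and most of the other V segments lie below 0 in both comparisons of NKT-gated cells.

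The other 15 V segments that were tested mostly had lower levels in NKT-gated cells. Against CD4-gated cells, 11 were lower and 2 higher, Trbv12-2 by 1.10 (SE 0.06) and Trbv1, a segment known from NKT receptors, by 0.49 (SE 0.12, adjusted p = 0.00316). Against CD8-gated cells, 12 were lower in level and only Trbv1 was higher (0.88, SE 0.11). Their median change was −1.67 against CD4-gated and −1.48 against CD8-gated cells, so the rises of Trbv13-1 and Trbv29 stood beside falls in most of the locus. Between CD8-gated and CD4-gated cells, 4 of the 15 were higher and 5 lower, with a median of −0.19. These counts are of levels, and the share of barcodes can differ from them. The level of Trbv12-2 was not called between NKT-gated and CD8-gated cells (−0.09, SE 0.06). Its share was 41.6% ± 4.34 of NKT-gated and 23.6% ± 2.25 of CD8-gated barcodes (SD, n = 4 libraries), with no overlap. At 3 or more UMIs the mean shares were 20.2% and 10.0%. Depth was not equalised in these shares. The constant segments did not pass the test in any of the 3 comparisons: Trbc1 was at 0.07, 0.08 and −0.01, and Trbc2 at 0.02, −0.04 and 0.06 (log2, NKT-gated minus CD4-gated, NKT-gated minus CD8-gated and CD8-gated minus CD4-gated cells).

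Other genes of the receptor were counted by list. Of 5 genes of the receptor and CD3 complex outside the gate, 2 were lower in NKT-gated than in CD4-gated cells, Cd247 (the zeta chain, −1.01, SE 0.05) and Trac (the alpha constant region, −0.14, SE 0.05). Between NKT-gated and CD8-gated cells 2 of the 5 were lower, and between CD8-gated and CD4-gated cells 1 was higher and 2 were lower. Of 14 proximal signalling genes such as Lck and Zap70, 5 were higher and 5 lower in NKT-gated than in CD4-gated cells, 7 and 6 against CD8-gated cells, and 3 and 6 between CD8-gated and CD4-gated cells. Their median changes were −0.00, 0.21 and −0.08. Of 7 tested genes of V(D)J recombination, 1 was higher and 3 lower in NKT-gated than in CD4-gated cells. Among the lower ones was Dntt, which adds bases at the joints (−2.84, SE 0.62, adjusted p = 0.00199). Dntt was near the floor in every class, with means of 0.286 CPM in NKT-gated, 2.61 CPM in CD8-gated and 2.13 CPM in CD4-gated sums. Against CD8-gated cells 4 of the 7 were lower, and between CD8-gated and CD4-gated cells 1 was higher. All 4 tested gamma-delta receptor genes were higher in NKT-gated than in CD4-gated and in CD8-gated cells, and in CD8-gated than in CD4-gated cells. Tcrg-C1, for example, was higher by 4.04 in NKT-gated than in CD4-gated cells (SE 0.18). Of 22 genes of an NKT program list without the gate genes, 14 were higher and 8 lower in NKT-gated than in CD4-gated cells, 15 and 6 against CD8-gated cells, and 8 and 6 between CD8-gated and CD4-gated cells.

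Within the NKT gate, barcodes with a gamma-delta receptor gene had Trbv13-1 in 10.1% ± 1.42, against 15.0% ± 1.79 of NKT-gated barcodes without one (SD, n = 4 libraries), lower in 4 of 4 libraries. Trbv29 was present in 14.1% ± 2.71 and 14.7% ± 2.16 of the same barcodes. In gamma-delta barcodes outside the classes (Trdc at 2 or more UMIs, no Cd4, Cd8a or Cd8b1), Trbv29 was present in 1.13% and Trbv13-1 in 3.10%. These subsets were looked at after the class shares and are given without a test. In the CD4 gate, Trbv31 was present in 5.72% ± 5.86 of barcodes with Foxp3, the factor of regulatory T cells, and in 10.2% ± 1.96 of those without, with overlapping ranges.

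Between genotypes, none of the 5 tested members passed the threshold in any class, and the design can show only large changes. Each deletion was measured in 1 library, and only the 2 WT libraries inform the spread (1 residual degree of freedom). GS and WT cells were compared in all T-gated, CD4-gated, CD8-gated and NKT-gated cells with 0 members called in each, against 0.0% of all genes in every one of them. URI and WT cells were compared in the same classes with 0 members called in each, against 0.0409% of all genes in T-gated, 0.0182% in CD4-gated, 0.0% in CD8-gated and 0.0277% in NKT-gated cells. DESeq2 also called 0 members in all 8. EdgeR's test called 0 genes of the receptor, signalling, V(D)J, gamma-delta and NKT program lists in each of the 8. Over all genes edgeR called 0 for GS minus WT in each cell set and 5, 2, 0 and 3 for URI minus WT in T-gated, CD4-gated, CD8-gated and NKT-gated cells, and DESeq2 called 0, 0, 0 and 2 for GS minus WT and 4, 4, 0 and 4 for URI minus WT. At an unadjusted p under 0.05, edgeR's test gave 41, 36, 44 and 46 genes for GS minus WT in T-gated, CD4-gated, CD8-gated and NKT-gated cells, and 52, 62, 24 and 88 for URI minus WT, with 1 member among them.

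That member was Trbv14 in NKT-gated cells, which was at 10.2 CPM in the URI library, against 21.7 and 30.8 CPM in the WT libraries (−1.39 on the log2 scale, SE 0.55, adjusted p = 1.00 by edgeR). Trbv14 in the URI library was also below both WT libraries in all T-gated cells (43.4 CPM, against 78.7 and 67.6 CPM) and in CD8-gated cells (79.4 CPM, against 114 and 158 CPM). In CD4-gated cells it was at 27.1 CPM in the URI library, between 52.9 and 16.3 CPM in the WT libraries. In all T-gated cells Trbv29 had 116 CPM in the GS and 100.5 CPM in the URI library, both between the 125 and 74.7 CPM of the WT libraries. In the same cells Trbv13-1 had 50.9 CPM in the GS and 60.2 CPM in the URI library, against 52.3 and 43.8 CPM in the WT libraries. Over the 5 members, the change ran from −0.91 to 0.75 for GS minus WT and from −1.39 to 0.70 for URI minus WT over the 4 cell sets. The SEs lay between 0.35 and 0.59.

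**Figure D3:**
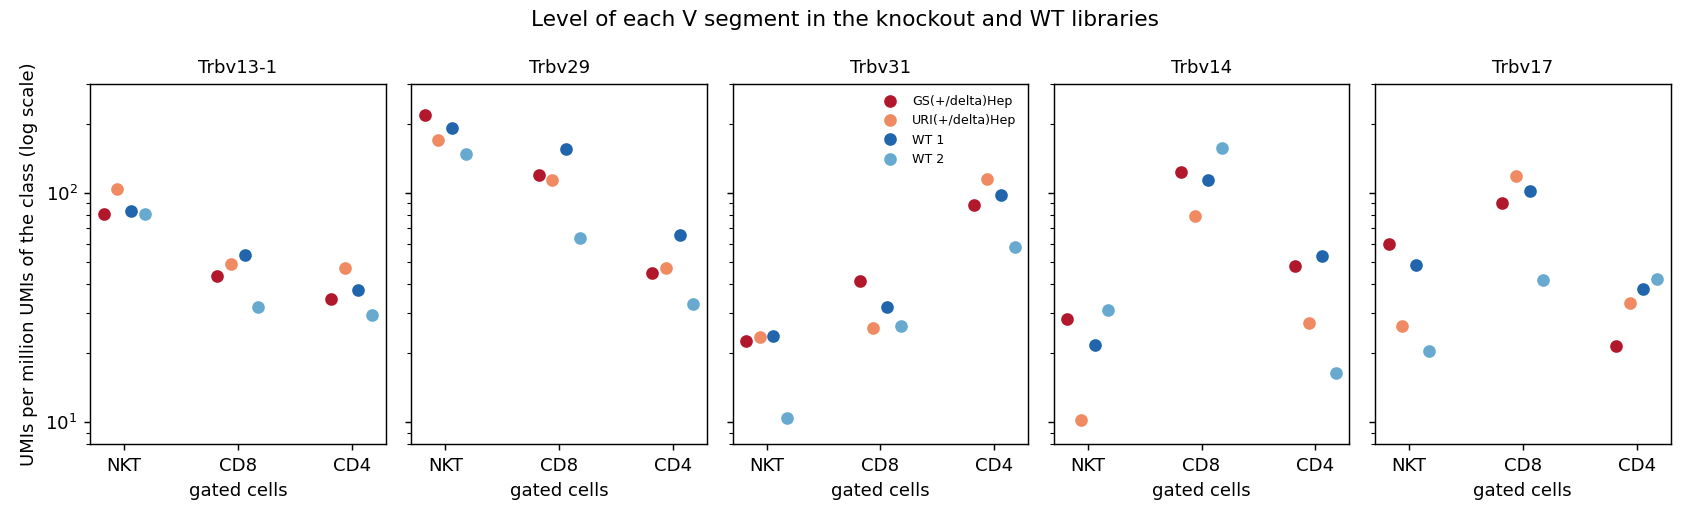
Level of each member (CPM, log y axis) in NKT-gated, CD8-gated and CD4-gated sums of the GS, URI and WT libraries, 1 point per library. Trbv14 in NKT-gated cells is at 10.2 CPM in the URI library, against 21.7 and 30.8 CPM in the WT libraries, and no member passed the test between genotypes.

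Barcodes with 1 member were then set against barcodes with another member, to ask which other genes differed with the segment. Of the T-gated barcodes, 3573 held UMIs of exactly 1 member, among them 913 with Trbv13-1, 379 with Trbv14, 341 with Trbv17, 1111 with Trbv29 and 826 with Trbv31. The NKT gate took 32.3% of barcodes with Trbv13-1 and 30.8% of those with Trbv29, but 8.18% with Trbv14, 13.8% with Trbv17 and 9.69% with Trbv31, against 15.6% of the barcodes with no member. The part of this class makeup in the differences over all T cells was not tested apart from the fits within a class given below. Sums per library were compared by edgeR's test, with the members left out of the table.

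In cells with Trbv31, 155 genes were higher (1.64%) and 228 lower (2.42%) than in cells with another member, 4.06% of 9432 genes tested. DESeq2 called 242. Without the GS library 217 were called, and without the URI library also 217. Ephb6, an ephrin receptor without kinase activity, had the largest rise: it was at 109 and 146 CPM (GS, URI) and 102 and 165 CPM (WT) in cells with Trbv31. In cells with another member it was at 15.8 and 23.6 CPM (GS, URI) and 16.6 and 11.5 CPM (WT). Every library with Trbv31 lay far above every library without it (2.82 on the log2 scale, SE 0.14, adjusted p = 7.1e-07), and the call held in 11 of 11 alternatives. Ephb6 starts 47.0 kb from Trbv31, at chr6:41605482-41620509 on the plus strand. A UMI of Ephb6 was present in 41.0% of barcodes with Trbv31 alone (exact 95% interval 37.7% to 44.5%, counting error only), against 7.89% to 10.6% with another member alone and 8.33% with none. The share was 35.0% in NKT-gated, 33.6% in CD8-gated and 46.7% in CD4-gated barcodes with Trbv31, against 8.40%, 6.81% and 11.2% of those with no member. It was 36.1% and 51.6% of Trbv31 barcodes in the GS and URI libraries and 35.2% and 40.2% in the WT libraries. Tested within a class, Ephb6 was higher with Trbv31 by 2.35 in CD4-gated cells (SE 0.21) and by 2.54 in CD8-gated cells (SE 0.24). What links the counts of these neighbours was not tested.

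**Figure D4:**
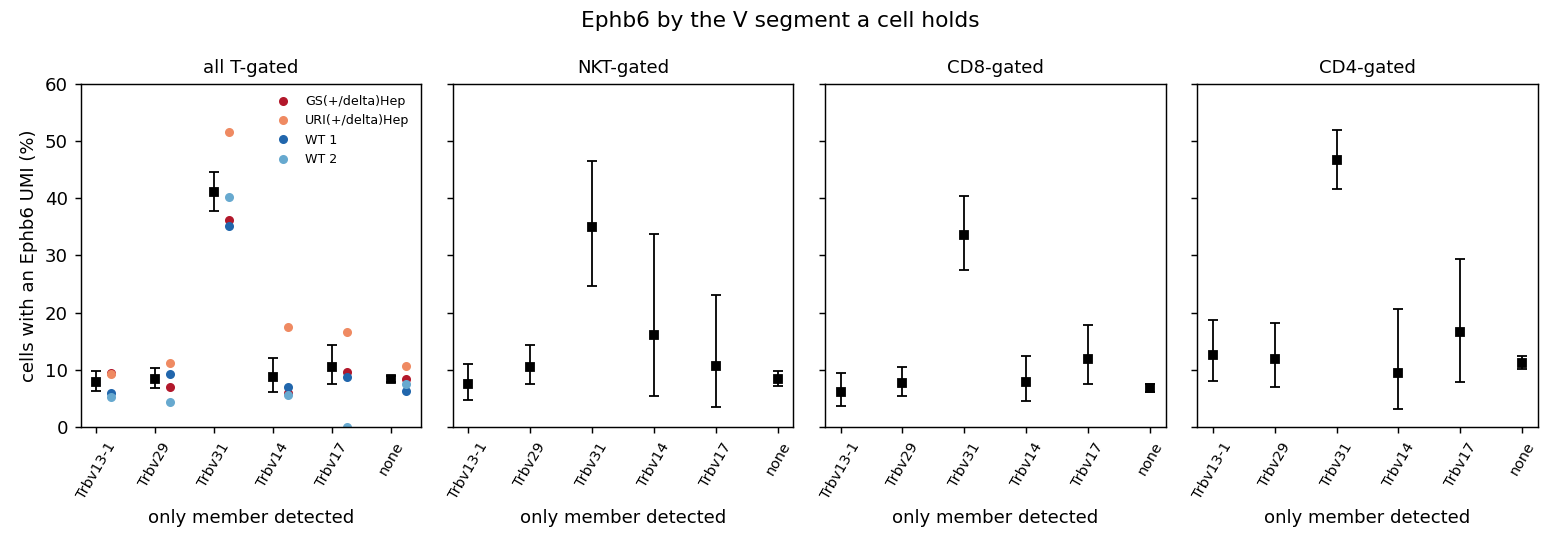
Share of barcodes with a UMI of Ephb6 (y axis, percent) by the only member they held, or none, in all T-gated, NKT-gated, CD8-gated and CD4-gated barcodes. Squares are all libraries together with exact 95% intervals, and coloured points in the first panel are single libraries. T-gated barcodes with Trbv31 are at 36.1% and 51.6% in the GS and URI libraries and at 35.2% and 40.2% in the WT libraries, above all other barcodes.

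The other genes that rose most with Trbv31 were Jchain, the joining chain of secreted antibodies (1.86, SE 0.27), St8sia6, a sialyltransferase (1.48, SE 0.17), and Pdlim4, a PDZ and LIM domain protein (1.36, SE 0.11). Those that fell most were Zfp683, the transcription factor Hobit of tissue-resident lymphocytes (−1.55, SE 0.11), Zbtb16 (−1.53, SE 0.14), a gene of the NKT gate, the cytokine gene Il4 (−1.38, SE 0.24) and Socs2, an inhibitor of cytokine signalling (−1.29, SE 0.14). Of 22 genes of an NKT program list, 12 were lower and 4 higher with Trbv31, with Klrk1 at −1.08 (SE 0.08) and Il2rb at −0.97 (SE 0.07). The Il4 call was lost without the GS library (adjusted p = 0.0708). The Jchain call held in 7 of 10 alternatives, over which its change ran from 1.13 to 2.40. In WT replicate 2 Jchain was at 11.4 CPM with Trbv31, against 8.50 CPM with another member. Jchain is a plasma cell gene, and plasma cell markers were present in all classes at the levels given above. Its part in the result was not tested. Within CD4-gated cells 10 genes were called, 9 of them also called over all T cells, and within CD8-gated cells 9, of which 3 were.

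In cells with Trbv29, 106 genes were higher (1.1%) and 73 lower (0.757%), 1.86% of 9648 genes, and DESeq2 called 85. Without the GS library 68 were called, without the URI library 84 and without WT replicate 2 111. The largest rises were of F2rl2, a receptor of the thrombin receptor family (0.79, SE 0.14), Cd93 (0.76, SE 0.15), Zbtb16 (0.76, SE 0.07) and Hip1 (0.75, SE 0.11). Zbtb16 was at 343 and 287 CPM (GS, URI) and 149 and 508 CPM (WT) with Trbv29, against 188 and 192 CPM (GS, URI) and 98.4 and 244 CPM (WT) with another member. It was higher with the segment in every library. Of the NKT program list, 10 genes were higher and 4 lower, with Cxcr3 at 0.58 (SE 0.06) and Klrb1c at 0.73 (SE 0.08). Within CD4-gated cells, which by the gates carry no UMI of Cxcr6 where they carry Zbtb16, Zbtb16 was higher with Trbv29 by 2.28 (SE 0.31, adjusted p = 0.000813), and 23 genes were called there, 15 of them also called over all T cells. Within NKT-gated cells 9 genes were called and Zbtb16 was not (0.22, SE 0.08, adjusted p = 0.926).

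The largest falls with Trbv29 were of genes of other cell types: Ngp, a neutrophil granule protein (−4.33), and Jchain (−3.34), Igha (−1.98) and Igkc (−1.89), which encode parts of antibodies. Ngp was at 4.15 and 31.3 CPM (GS, URI) and 1.07 and 15.1 CPM (WT) with Trbv29, against 6.11 and 836 CPM (GS, URI) and 29.6 and 21.7 CPM (WT) with another member. A single sum of the URI library carried most of this difference, and without that library the change was −1.85 (adjusted p = 0.142). Jchain was at 416 and 622 CPM (GS, URI) and 485 and 11.4 CPM (WT) in cells with Trbv31, which were among the cells compared. Without barcodes that held markers of other cell types, Igha and Igkc were higher with Trbv29 by 2.68 (adjusted p = 0.00657) and 1.60 (adjusted p = 0.0119), the opposite sign. F2rl2 lost its call without the GS library (adjusted p = 0.114), Cd93 without the GS library (0.104), the URI library (0.0912) or WT replicate 2 (0.0655), and Igha without the GS library (0.0765).

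In cells with Trbv13-1, 38 genes were higher (0.396%) and 11 lower (0.115%), 0.511% of 9592 genes, and DESeq2 called 36. Without the URI library 28 were called and without WT replicate 2, 22. The largest rise was of the V segment Trbv12-1, which was at 56.4 and 33.3 CPM (GS, URI) and 72.3 and 26.1 CPM (WT) with Trbv13-1. It was at 17.9 and 9.83 CPM (GS, URI) and 21.3 and 10.8 CPM (WT) with another member, so every library was higher with Trbv13-1 (1.68, SE 0.14, adjusted p = 0.000287). Il17rb, a subunit of the IL-25 receptor (1.11, SE 0.19), Il4 (1.07, SE 0.15) and Tmem273 (1.07, SE 0.15) followed. Il17rb lost its call without the URI library (adjusted p = 0.371) and without WT replicate 2 (0.130). Of the NKT program list, 7 genes were higher and 2 lower, with Id2 at 0.45 (SE 0.05) and Xcl1, a chemokine, at 0.49 (SE 0.07). The largest falls were of Ephb6 (−1.76, SE 0.18), Trbv12-2 (−0.84, SE 0.15), Pdlim4 (−0.64, SE 0.11) and Igfbp4 (−0.44, SE 0.07). Ephb6 and Pdlim4 were high in cells with Trbv31, which were among the cells compared. The Trbv12-2 call was lost without the GS library, WT replicate 1 or WT replicate 2 (adjusted p = 0.0979, 0.0776 and 0.0967), the Pdlim4 call without the GS library, the URI library or WT replicate 2 (0.123, 0.196 and 0.0736), and Igfbp4 was lost without WT replicate 2 (adjusted p = 0.0736).

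In cells with Trbv14, 23 genes were higher (0.254%) and 42 lower (0.464%), 0.718% of 9048 genes, and DESeq2 called 31. Without the GS library 17 were called, without the URI library 31 and without WT replicate 2, 12. The largest rises were of the V segment Trbv12-2 (1.19, SE 0.11), Trdc, the delta constant region (0.95, SE 0.16), the protease receptor gene F2rl1 (0.70, SE 0.13) and Eomes, a transcription factor of CD8 and NK cells (0.69, SE 0.15). Trbv12-2 was at 315 and 197 CPM (GS, URI) and 207 and 174 CPM (WT) with Trbv14, against 118 and 87.6 CPM (GS, URI) and 112 and 73.5 CPM (WT) with another member, with no overlap. The largest falls were of Mki67, a marker of dividing cells (−3.22, SE 0.31), Il4 (−1.64, SE 0.35), Zbtb16 (−1.47, SE 0.12) and Ckb, a creatine kinase (−1.46, SE 0.31). Mki67 was at 2.96 and 3.90 CPM (GS, URI) and 8.61 and 0 CPM (WT) with Trbv14, against 31.4 and 32.9 CPM (GS, URI) and 75.3 and 15.3 CPM (WT) with another member. Within CD8-gated cells, Trdc had the other sign with Trbv14 and was not called (−1.52, SE 0.35, adjusted p = 0.371). Trbv12-2, Mki67 and Zbtb16 kept their calls without any single library, while Trdc, F2rl1, Eomes, Il4 and Ckb each lost theirs without the GS library (adjusted p = 0.0786, 0.171, 0.295, 0.245 and 0.285). Without the URI library F2rl1 (0.113) and Eomes (0.0694) were lost, without WT replicate 1 Eomes (0.206) and Ckb (0.0715), and without WT replicate 2 Trdc (0.0837), F2rl1 (0.120), Eomes (0.168), Il4 (0.232) and Ckb (0.306). Of the NKT program list, 4 genes were higher and 6 lower. Within CD8-gated cells edgeR's test called 0 genes, with 328 at an unadjusted p under 0.05.

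In cells with Trbv17, 4 genes were higher (0.0441%) and 15 lower (0.165%), 0.209% of 9071 genes, and DESeq2 called 11. Without the GS library 39 were called and without the URI library 5. Those that rose were Cd8b1 (0.48, SE 0.08) and Cd8a (0.47, SE 0.08), both genes of the CD8 gate, Cmah, an enzyme of sialic acid synthesis (0.44, SE 0.08), and Trbc2 (0.43, SE 0.07). Trbc2 was at 1596 and 1781 CPM (GS, URI) and 1705 and 1643 CPM (WT) with Trbv17, against 1333 and 1168 CPM (GS, URI) and 1394 and 1084 CPM (WT) with another member. None of these 4 calls held without the URI library (adjusted p = 0.0967, 0.223, 0.263 and 0.129), and Cmah was also lost without the GS library (0.0680). The largest falls were of Mpeg1 (−2.56, SE 0.34) and Lcn2 (−2.24, SE 0.41), genes of macrophages and neutrophils, and of Il4 (−1.08, SE 0.20) and the transcription factor gene Maf (−1.02, SE 0.17). Without the URI library Lcn2 was at −0.70 (adjusted p = 0.917) and Maf lost its call (0.129). The Il4 call was lost without each library in turn (adjusted p = 0.179, 0.223, 0.0632 and 0.0570 without GS, URI, WT replicate 1 and WT replicate 2). Within CD8-gated cells 10 genes were called lower, among them S100a8, S100a9 and Lyz2. The part of neutrophil and myeloid RNA in these falls was not tested.

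The receptor lists were also counted with each segment. Between 0.209% (Trbv17) and 4.06% (Trbv31) of all genes were called in these comparisons, so few or no calls in lists of this size are no result about them. None of 14 proximal signalling genes was called with Trbv13-1, Trbv14, Trbv17 or Trbv29, and 1 was lower with Trbv31. None of the 5 or 6 V(D)J recombination genes tested was called with any of the 5 segments. Of 7 genes of the receptor and CD3 complex, Trbc2 was higher with Trbv14 (0.35, SE 0.06, adjusted p = 0.0184) as with Trbv17, 1 was higher and 1 lower with Trbv31, and none was called with Trbv13-1 or Trbv29. Of 4 gamma-delta receptor genes, Trdc was higher with Trbv14 and lower with Trbv29 (−0.67, SE 0.14, adjusted p = 0.0171). With Trbv31, Tcrg-C4 (−0.80, SE 0.13) and Tcrg-C2 (−0.71, SE 0.15) were lower, and none of the 4 was called with Trbv13-1 or Trbv17.

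The constant region found beside each segment was counted too. Trbc1 made up 36.8% and 31.5% of Trbc1 and Trbc2 UMIs in Trbv13-1 barcodes of the GS and URI libraries and 41.3% and 27.8% in those of the WT libraries. Over all libraries together the share was 35.6% with Trbv13-1, 29.6% with Trbv14, 27.8% with Trbv17, 35.4% with Trbv29 and 40.0% with Trbv31, against 37.8% in barcodes with no member. The libraries of one segment spread widely, from 21.0% to 34.6% for Trbv14 and from 32.2% to 44.3% for Trbv31, and the difference was not tested.

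A T cell clone is expected to carry 1 productive beta chain, and the count of segments per barcode bears on how far a UMI marks a cell. Of T-gated barcodes, 1.76% held UMIs of 2 or more members, which is 7.17% of those with any. The second segment had a median of 1 UMI and the first a median of 6 UMIs. At 3 or more UMIs per segment, 0.499% held 2 or more members. Over all 22 detected segments, 86.1% of T-gated barcodes had at least 1 and 35.5% had 2 or more, and at 3 or more UMIs 61.3% had at least 1 and 11.5% had 2 or more. Pairs were then counted in the NKT-gated, CD8-gated and CD4-gated barcodes together. With Trbv13-1, another segment was present at a median of 0.534 times its share in barcodes without Trbv13-1, over 20 segments, and for Trbv29 at 0.574 times. The values were 0.652 for Trbv31, 0.718 for Trbv17 and 0.817 for Trbv14.

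Some segments had a ratio above 1. Trbv12-1, which lies 1.94 kb before Trbv13-1, was present in 17.1% of barcodes with Trbv13-1 and in 5.67% of those without, higher in 4 of 4 libraries. At 3 or more UMIs of both, the shares were 3.65% and 3.03%, a ratio of 1.20. Trbv12-2 was present in 39.9% of barcodes with Trbv14 and in 26.3% of those without, also higher in 4 of 4 libraries, and in 12.9% and 11.3% at 3 or more UMIs, where 2 of 4 libraries were higher. Trbv12-2 lies 15.8 kb before Trbv14. Trbv21 in Trbv14 barcodes had a ratio of 2.73, from 5 barcodes.

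**Figure D5:**
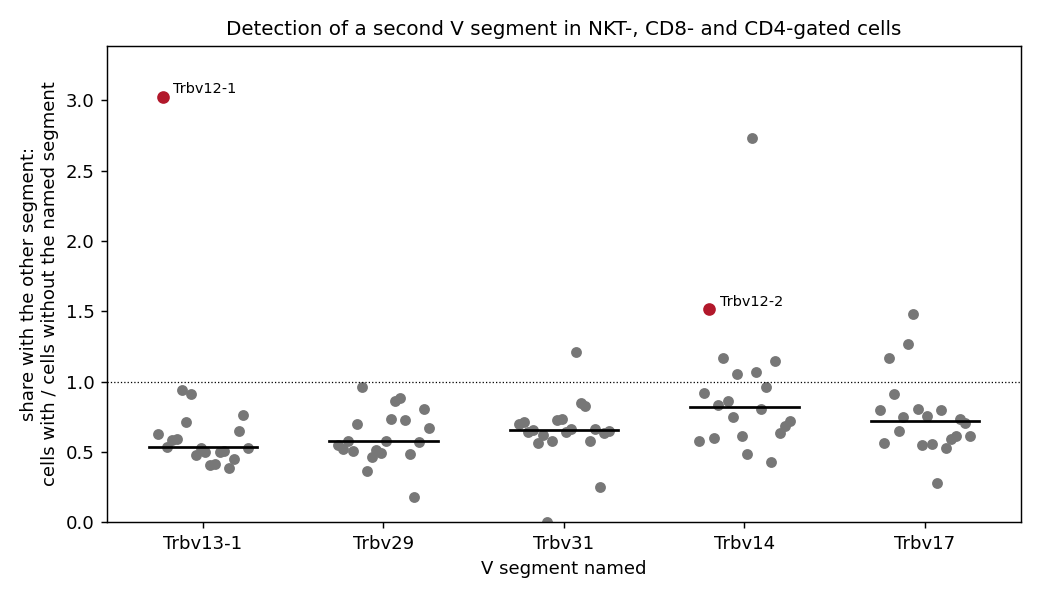
For each member, the share of NKT-gated, CD8-gated and CD4-gated barcodes with another V segment when the member is present divided by that share when it is absent (linear y axis), with 1 point per other segment and a line at the median. Most points lie below 1. Trbv12-1 beside Trbv13-1 is at 3.02 and Trbv12-2 beside Trbv14 at 1.51, and the point of Trbv14 at 2.73 is Trbv21 with 5 barcodes.

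Genes whose level most resembled each member were sought over the 12 sums of 3 classes and 4 libraries, among 7676 genes with a mean of at least 20 CPM. The correlations are descriptions over sums that share libraries and depth. For Trbv29 they were Adcy7 (Pearson's r = 0.978), Ctla2b (0.969) and Lin37 (0.962), and for Trbv13-1 Ppp5c (0.964), Psmb8 (0.959) and Arhgap18 (0.957). For Trbv31 they were Sgms1 (0.960), E2f2 (0.957) and Mllt3 (0.953). For Trbv14 they were Chchd3 (0.927), Mettl1 (0.922) and Ipo4 (0.917), and for Trbv17 Pdk3 (0.893), Ostf1 (0.887) and St7 (0.883).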

How the data were processed

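CD45+ liver cells of 4 libraries were measured by fixed RNA probe hybridisation, which counts ligated probe pairs and not rearranged sequence. The deposited matrices hold UMI counts per gene and barcode without normalisation, made with Cell Ranger 8.0.0 against mm10 per the submitters' processing notes, and deposited beside them are the barcode and feature tables. Barcodes with at least 500 UMIs were gated on marker UMIs and summed per library and class. Sums were tested with edgeR 4.0.16 in R 4.3.3 (quasi-likelihood test after TMM normalisation and the filterByExpr filter on low counts). P-values were adjusted by Benjamini-Hochberg over all genes tested, at a threshold of 0.05. Comparisons of classes and of segments had the library as a term. They leave 6 and 3 residual degrees of freedom, and comparisons of genotypes leave 1. Each library is 1 pool of mice. In comparisons of genotypes, p-values measure the spread between the WT libraries. In those of classes and segments, they measure how the difference within a library varies from library to library. Either spread may be technical. CPM and shares of barcodes were computed with python 3.11.15, numpy 2.4.6, scipy 1.17.1 and pandas 2.3.3.

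Shares have exact Clopper-Pearson 95% intervals in the tables, which cover counting error only. Alternatives were DESeq2 1.42.0, no filter on low counts, no library term, each library left out, at least 1000 UMIs, Scrublet doublets left out (scanpy 1.11.5; otherwise doublets were kept), barcodes with other cell types' markers left out, a stricter gate and at least 2 UMIs of a segment. A Trbc gate, comparisons within a class, subsets of the classes and the Scrublet threshold of WT replicate 1 (the automatic one marked no barcode there, so the mean of the other libraries was used) were chosen after seeing the data. Fold changes and CPM of the segment comparisons leave the members out of the library totals.

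The named genes were the members, up to 4 genes a list by adjusted p, the 4 largest rises and falls among called genes with a mean of at least 20 CPM and 1 direction in 4 of 4 libraries, and the 3 genes most like each member. Zbtb16 within classes and Trbv13-3 and Trbv21 were named after their values were seen. Members and lists were chosen with earlier results of these data known. The comparison of cells with Trbv13-2 was not run, because it had 6 UMIs. Sequences come from GRCm38 with the GENCODE M21 annotation. One subset of the NKT-gated barcodes is not reported here.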

Additional observations from a re-analysis of the deposited data

Results flagged for a closer look

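In 3 cases, a library with a deletion lay above both WT libraries in CPM for a member in one class of cells and below both in another. Trbv17 in the GS library was 0.75 log2 units above WT in NKT-gated cells and at −0.91 in CD4-gated cells. Trbv17 in the URI library was at 0.70 in CD8-gated cells and at −0.27 in CD4-gated cells. Trbv31 in the URI library was at 0.55 in CD4-gated cells and at −0.19 in CD8-gated cells. None of these changes passed edgeR's quasi-likelihood test, each rests on 1 library with the deletion, and the difference between the classes was not tested.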

How the results depend on the processing

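The values in this paragraph are counts of called genes unless said otherwise. Without the library term, calls fell to 2239 between NKT-gated and CD4-gated, 2532 between NKT-gated and CD8-gated and 933 between CD8-gated and CD4-gated cells, and to 0 for Trbv13-1, Trbv14, Trbv17 and Trbv29 (161, 346, 219 and 227 genes at an unadjusted p under 0.05) and 1 for Trbv31. DESeq2 gave 31 for Trbv14, 11 for Trbv17, 85 for Trbv29 and 242 for Trbv31. It gave 4 for URI minus WT in CD4-gated and 2 for GS minus WT in NKT-gated cells. Without the filter on low counts there were 128 for Trbv13-1, 202 for Trbv14, 114 for Trbv17 and 326 for Trbv29. For GS minus WT that setting gave 3 in T-gated, 3 in CD4-gated, 4 in CD8-gated and 4 in NKT-gated cells, and for URI minus WT 13, 17, 5 and 13. Without barcodes that held markers of other cell types there were 1947 between CD8-gated and CD4-gated cells, 29 for Trbv13-1, 39 for Trbv14, 6 for Trbv17 and 194 for Trbv31, and for URI minus WT 0 in T-gated, 5 in CD4-gated and 6 in NKT-gated cells. Without Scrublet doublets there were 78 for Trbv17, 2 for GS minus WT in T-gated cells, and 8 in T-gated, 6 in CD4-gated and 6 in NKT-gated cells for URI minus WT. With at least 1000 UMIs URI minus WT in T-gated cells gave 2. The stricter gate gave 3 for GS minus WT in NKT-gated cells and 1 in CD4-gated, 1 in CD8-gated and 6 in NKT-gated cells for URI minus WT. With at least 2 UMIs of the segment Trbv17 gave 32. Within CD4-gated, CD8-gated and NKT-gated cells there were 5, 8 and 10 for Trbv13-1 and 23, 45 and 9 for Trbv29. Within CD4-gated and CD8-gated cells there were 10 and 9 for Trbv31, and within CD8-gated cells 0 for Trbv14 and 10 for Trbv17. Fewer cells enter the fits within a class, and the cause of the other changes was not tested.

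Leaving out 1 library at a time gave 3752 to 4571 calls between NKT-gated and CD4-gated, 4343 to 4959 between NKT-gated and CD8-gated and 2195 to 2765 between CD8-gated and CD4-gated cells. For the segments it gave 22 to 50 (Trbv13-1), 12 to 79 (Trbv14), 5 to 39 (Trbv17), 68 to 210 (Trbv29) and 217 to 311 (Trbv31). The share of T-gated barcodes with a member was 24.3% to 25.1% without 1 library, 19.2% at 2 or more UMIs and 15.3% after thinning. The share with 2 or more members was 1.67% to 1.84%, 0.850% and 0.379% under the same settings. Among the genes named in the segment comparisons, Igha (2.68) and Igkc (1.60) with Trbv29 changed sign without barcodes that held other markers. Within CD4-gated cells Trbv12-2 with Trbv13-1 did (0.33), and within CD8-gated cells Trdc with Trbv14 (−1.52) and Cd8b1 with Trbv17 (−0.0071). Of the members' class comparisons under alternatives, 170 kept their side of the threshold, 7 lost the call and 3 gained it. The 170 include changes of sign where neither fit called the member. Trbv17 between NKT-gated and CD4-gated cells, not called in any of 12 alternatives, ran from −0.21 to 0.56. No paired analysis was possible because the genotypes share fewer than 2 replicate numbers; this holds for the genotypes only, since comparisons of classes and segments had the library as a term.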
